A study of Mus musculus with 16 samples.

Results

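Expression of 7 genes of cardiac impulse conduction was followed in left ventricles of mice: the sodium channel subunits Scn4a and Scn4b, the connexins Gja1, Gja5 and Gjc1, and the pacemaker channels Hcn2 and Hcn4. They were taken by name, with their counts in 16 libraries and their splicing events in 3 rMATS tables (rMATS compares how often an exon is kept in RNA). The count table lists 56953 genes, and 18662 of them, including all 7 conduction genes, had enough counts to be tested. Of the 7, Scn4b fell in mutant hearts (7.4 against 31.9 CPM, a normalised count) and was at 34.3 CPM in mutant hearts with the Tnpo3 virus. Hcn2 was higher in mutant hearts with the Tnpo3 virus than in both wild-type groups, a call that was lost in several alternative settings. The other 5 genes passed the edgeR test of all libraries in no comparison.

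The 16 mice, Bl6J of both sexes, gave 1 library each, 4 per group. Mice labelled P635L are homozygous for that mutation in RBM20, a protein that controls splicing in heart muscle, and wild-type mice (WT) lack it. Every mouse, controls included, received 1e12 viral genomes of AAV9 by tail vein at 4 weeks of age, and hearts were taken 12 weeks later, at 16 weeks. The control virus (Ctr) carried pCAG-iCre-T2A-eGFP, which encodes Cre recombinase and a green fluorescent protein, and the other virus carried the cDNA of Tnpo3, a nuclear import receptor. Groups are named by genotype and virus, for example P635L Tnpo3. There was no group without virus, and the promoter of the Tnpo3 vector is not given in the sources used here. The 2 viruses differ in their stated cargo, Cre and a green fluorescent protein against Tnpo3. What else they share or differ in is not known here.

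Voltage-gated sodium channels start the action potential of heart muscle. Their pore is an alpha subunit, and beta subunits such as that of Scn4b change its gating and its place in the membrane. Connexins build the gap junctions through which current passes from cell to cell, and the HCN channels carry the inward current known for pacing in the sinus node and the conduction system. Gja1 (connexin 43) is the main connexin of working ventricle, whereas Gja5 (connexin 40), Gjc1 (connexin 45) and Hcn4 are known for atria and conduction tissue.

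Library totals ran from 28493249 to 85922669 counts. Normalised counts are given as CPM, counts scaled by library total and by TMM, a factor that evens out composition between libraries. Tnpo3 lay at 41.6 to 49.4 CPM in the 8 libraries with the control virus and at 231 to 723 CPM in the 8 with the Tnpo3 virus, so the vector labels held in all 16. Rbm20 itself ran from 167 to 333 CPM over all libraries; this does not check the genotype, since a point mutation need not change the count. In 3 libraries, WT Ctr replicates 2 and 4 and WT Tnpo3 replicate 4, a single gene held 20% to 22.7% of all counts, against 0.703% to 5.3% in the others; they are called the 3 skewed libraries below. Xist was above the genes of the Y chromosome in 3 libraries, WT Ctr replicate 4 and WT Tnpo3 replicates 2 and 4, and in none of the 8 P635L libraries, so sex and genotype are partly mixed. In such tissue RNA, fewer cells of a type and less RNA per cell cannot be told apart.

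Per length of transcript (CPM per kilobase of exon), Gja1 stood first in each of the 16 libraries. In WT Ctr hearts its level was 27.5 ± 2.84 CPM per kilobase (SD, n = 4), followed by Hcn2 with 9.82 ± 1.73, Scn4b with 6.4 ± 1.14, Gjc1 with 4.94 ± 0.949, Scn4a with 3.24 ± 1.69, Hcn4 with 2.34 ± 1.11 and Gja5 with 1.66 ± 0.3. The 4 WT Ctr values of Gja1 and of Hcn2 lay above those of the next gene, while from Scn4b downward each neighbour in this order overlapped with the next. The order was much the same in the other groups except for Scn4b. It stood at position 3 or 4 of 7 in WT Ctr libraries, at 5 to 7 in P635L Ctr libraries and at 3 in all P635L Tnpo3 libraries.

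**Figure D1:**
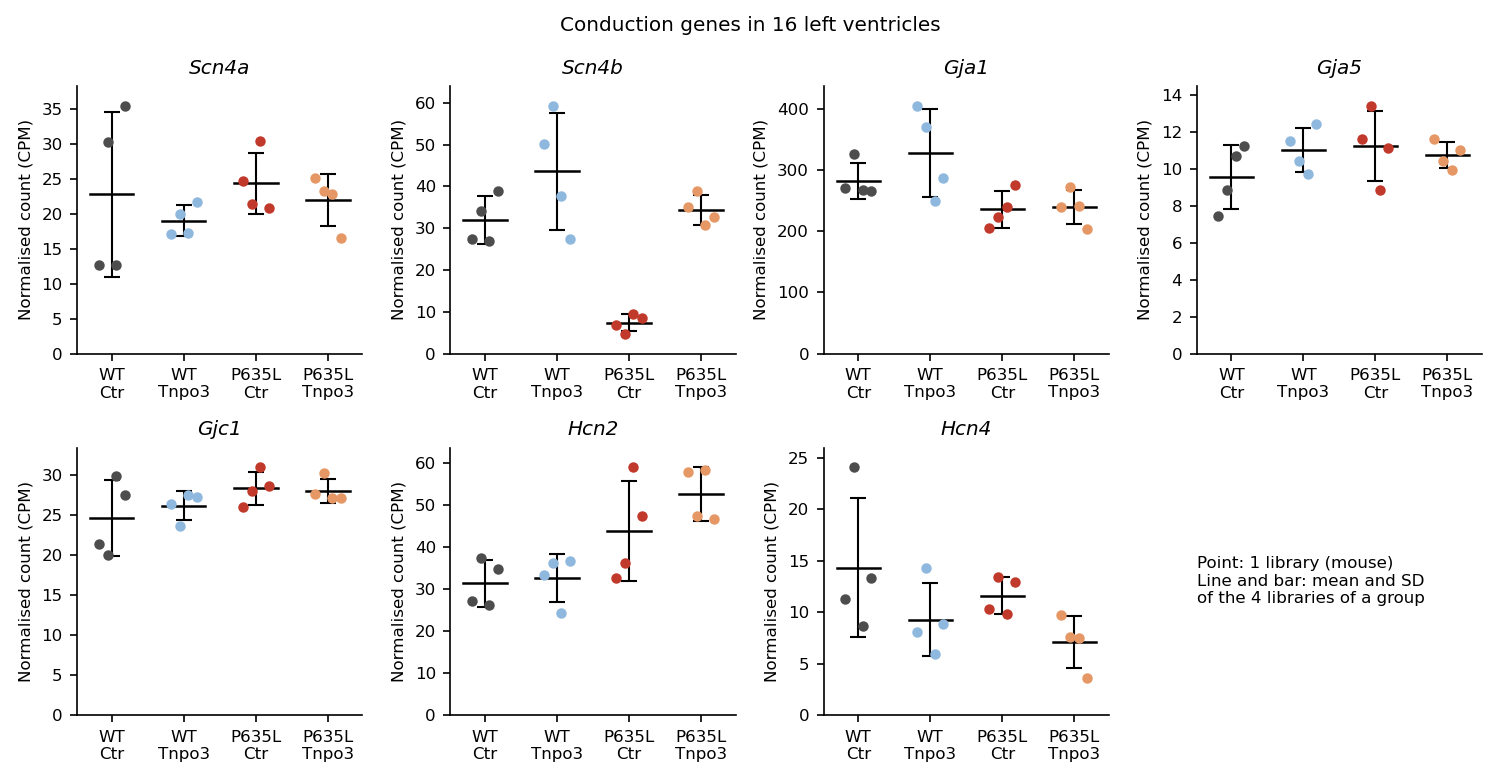
Normalised count (CPM, vertical axis from 0) of each of the 7 genes in each library (points), with the mean and SD of the 4 libraries of each group. The 4 P635L Ctr libraries hold 4.75 to 9.51 CPM of Scn4b, below all 12 other libraries, whose lowest value is 27 CPM; the other 6 genes show no such gap.

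Scn4b, which encodes the beta-4 subunit of sodium channels, had the largest fold change of the 7 genes. The gene (ENSMUSG00000046480) lies on the plus strand at chr9:45049693-45065450 (GRCm39). Its counts were 27.5, 34.2, 27 and 38.9 CPM in WT Ctr replicates 1 to 4 and 6.82, 4.75, 9.51 and 8.52 CPM in P635L Ctr. They were 35.1, 38.9, 30.7 and 32.6 CPM in P635L Tnpo3, and 50.2, 59.3, 37.6 and 27.4 CPM in WT Tnpo3. The P635L Ctr libraries lay below every other library (P635L Ctr and WT Ctr were separate for 19.1% of all genes tested), and the P635L Tnpo3 libraries lay within or close to the WT Ctr range.

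Scn4b was 4.33-fold lower in P635L Ctr than in WT Ctr (7.4 ± 2.09 against 31.9 ± 5.7 CPM, SD, n = 4; log2 -2.11, SE 0.231, edgeR adjusted p = 8e-06). With the Tnpo3 virus it was 4.66-fold higher in P635L hearts (34.3 ± 3.56 CPM, n = 4; log2 2.22, SE 0.231, edgeR adjusted p = 4.14e-05). P635L Tnpo3 and WT Ctr hearts did not pass the same test (log2 0.11, adjusted p = 0.838), and the 95% interval of that difference ran from 0.781-fold to 1.48-fold. In WT hearts the virus gave a log2 difference of 0.45 (95% interval -0.01 to 0.92, adjusted p = 1). The effect of the virus was larger in P635L than in WT hearts: the interaction was 1.77 on the log2 scale (SE 0.314, edgeR adjusted p = 0.0127), and 0.504% of all genes tested passed the test of an interaction. These 3 calls for Scn4b held in every alternative tried, with log2 values of -2.26 to -1.85, 2.07 to 2.36 and 1.34 to 1.94 in turn.

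The start of Scn4b is shown for orientation because it is the gene with the clearest change. The 250 bases upstream of its RefSeq start, on the plus strand at chr9:45138374-45138623 of GRCm38.p6 (a different build from that of the counts), are given 5′ to 3′ in lower case.
Scn4b: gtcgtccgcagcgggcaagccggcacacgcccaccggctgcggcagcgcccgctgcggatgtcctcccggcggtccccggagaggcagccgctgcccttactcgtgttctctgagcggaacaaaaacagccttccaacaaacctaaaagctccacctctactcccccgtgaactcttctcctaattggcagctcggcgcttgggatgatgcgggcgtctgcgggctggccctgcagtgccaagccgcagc
This stretch is 66% G and C, against a median of 52.4% over 32851 mouse promoters of the same length. It was searched on both strands for 3 motifs: CACGTG (an E-box, found in 6.02% of those promoters), TTATGTAA (a D-box, 0.819%) and GGTGTG (a T-box half-site, 16.3%). None of the 3 occurs in it, nor in the same window of the other 5 genes in the RefSeq table, Scn4a, Gja1, Gja5, Hcn2 and Hcn4. Gjc1 had no entry. No capitals are shown for this reason, and nothing follows from it about any factor.

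Scn4a (ENSMUSG00000001027) encodes the alpha subunit best known from skeletal muscle, and lies on the minus strand at chr11:106209418-106244114. Its counts were 12.7, 30.3, 12.7 and 35.5 CPM in WT Ctr, 17.2, 20, 17.3 and 21.7 in WT Tnpo3, 24.7, 21.5, 30.4 and 20.9 in P635L Ctr, and 25.1, 23.3, 22.9 and 16.6 in P635L Tnpo3. The WT Ctr libraries formed a high and a low pair, and the high pair were the 2 skewed libraries of that group. With all libraries, P635L Ctr and WT Ctr hearts differed by 0.1 on the log2 scale (95% interval -0.48 to 0.68, edgeR adjusted p = 0.857). Without the 3 skewed libraries, which leaves 2 WT Ctr libraries, that value was 0.98 (adjusted p = 0.00191), and P635L Tnpo3 against WT Ctr was 0.83 (adjusted p = 0.0234) in place of -0.05 (adjusted p = 0.942). The direction for Scn4a in these comparisons therefore depends on which libraries are used, and not on those of WT Ctr alone. The first value also turned to -0.02 without P635L Ctr replicate 3. The second turned to 0.06 without P635L Tnpo3 replicate 4 and to 0.01 with a replicate block. Within P635L hearts, where no library was skewed, the virus gave a log2 difference of -0.15 (95% interval -0.73 to 0.43, adjusted p = 0.838).

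Scn4b set over Scn4a per length, a ratio within each library, was 1.55 to 3.06 in WT Ctr, 1.78 to 4.2 in WT Tnpo3, 0.312 to 0.576 in P635L Ctr and 1.89 to 2.78 in P635L Tnpo3. All 4 P635L Ctr libraries held fewer Scn4b than Scn4a counts per length, and all 12 others held more. Scn4a passed in no comparison with all libraries, so this ratio largely restates the Scn4b values and is no separate result. Within WT Ctr it was 1.6 and 1.55 in the skewed replicates 2 and 4, and 3.06 and 3.02 in replicates 1 and 3.

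**Figure D2:**
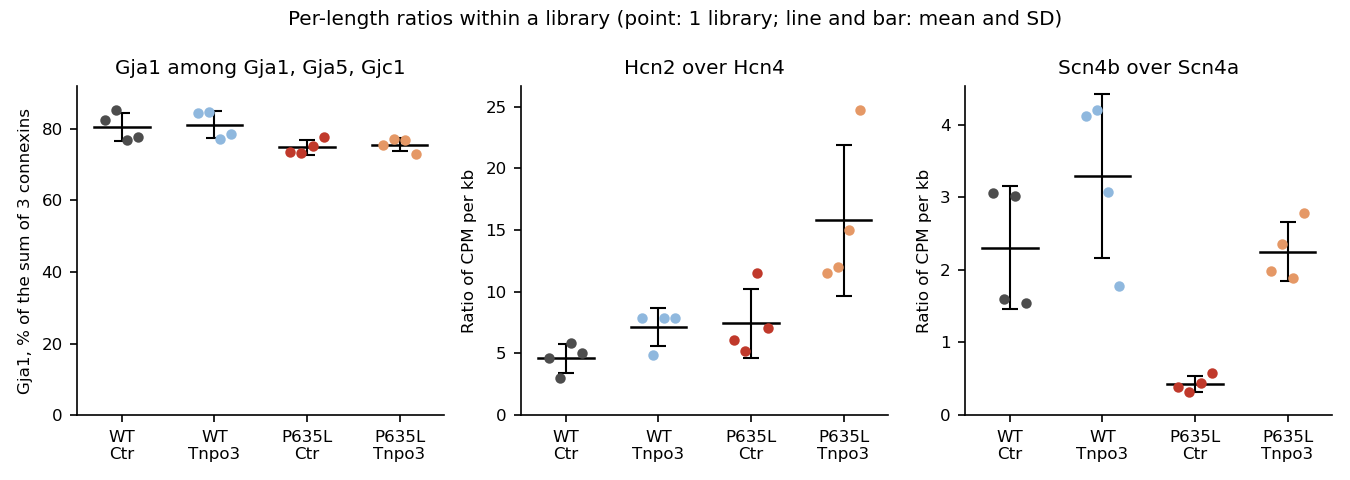
Ratios of levels per length within each library (points), with group mean and SD: Gja1 in percent of the 3 connexins, Hcn2 over Hcn4, and Scn4b over Scn4a, each on an axis from 0. The Scn4b to Scn4a ratio is under 1 only in P635L Ctr (0.312 to 0.576), and Hcn2 to Hcn4 reaches 11.5 to 24.7 in P635L Tnpo3.

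Gja1 (ENSMUSG00000050953), at chr10:56253426-56278609 on the plus strand, was counted at 270, 326, 268 and 266 CPM in WT Ctr and 405, 370, 250 and 287 in WT Tnpo3. It was at 205, 223, 240 and 276 CPM in P635L Ctr and 240, 273, 242 and 204 in P635L Tnpo3. The highest values were WT Tnpo3 replicates 1 and 2, and the groups overlapped in each comparison. P635L Ctr differed from WT Ctr by -0.26 on the log2 scale (95% interval -0.57 to 0.05, edgeR adjusted p = 0.263), and the virus moved P635L hearts by 0.02 (95% interval -0.29 to 0.33, adjusted p = 0.959). P635L Tnpo3 against WT Tnpo3 gave -0.45 (95% interval -0.76 to -0.14) with an edgeR adjusted p = 0.0941. That comparison passed the test without the 3 skewed libraries (-0.51, adjusted p = 0.0406), without WT Tnpo3 replicate 3 (-0.56, adjusted p = 0.0289) and with DESeq2 (-0.46, adjusted p = 0.038).

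Gja5 (ENSMUSG00000057123), the connexin of atria, Purkinje fibres and arterial endothelium, lies on the plus strand at chr3:96812009-96984732. It varied little between groups: its counts were 7.45, 8.83, 10.7 and 11.2 CPM in WT Ctr, 11.5, 10.4, 9.73 and 12.4 in WT Tnpo3, 11.6, 13.4, 8.83 and 11.1 in P635L Ctr, and 11.6, 10.4, 9.94 and 11 in P635L Tnpo3. The groups overlapped throughout. P635L Ctr against WT Ctr was 0.23 on the log2 scale (95% interval -0.07 to 0.54, edgeR adjusted p = 0.314), and P635L Tnpo3 against P635L Ctr was -0.07 (95% interval -0.37 to 0.24, adjusted p = 0.863). Its exons share 165 bases, 2.87% of their length, with Gpr89 on the other strand, and reads there cannot be told apart unless strand was used in counting.

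Gjc1 varied least of the 7 over the 16 libraries (coefficient of variation 11.1%). The gene (ENSMUSG00000034520), at chr11:102690405-102710526 on the minus strand, was at 21.4, 20, 29.9 and 27.5 CPM in WT Ctr, 26.4, 23.6, 27.5 and 27.3 in WT Tnpo3, 26, 28, 31 and 28.6 in P635L Ctr, and 27.7, 30.3, 27.1 and 27.2 in P635L Tnpo3. The lowest values were WT Ctr replicates 1 and 2, and the groups overlapped. P635L Ctr against WT Ctr was 0.2 on the log2 scale (95% interval -0.05 to 0.45, edgeR adjusted p = 0.29). The virus moved P635L hearts by -0.02 (95% interval -0.27 to 0.23, adjusted p = 0.962), so a change of more than 1.17-fold up lay outside the interval. The 3 connexins can also be read as shares. Gja1 made up 76.9% to 85.2% of the 3 per length in WT Ctr and 73.2% to 77.8% in P635L Ctr, with 77.2% to 84.7% in WT Tnpo3 and 73% to 77.2% in P635L Tnpo3.

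Hcn2 (ENSMUSG00000020331) encodes the HCN isoform known for ventricle and brain and lies on the plus strand at chr10:79552468-79571942. It was at 27.1, 37.5, 26.3 and 34.7 CPM in WT Ctr and 33.3, 36.1, 24.3 and 36.6 in WT Tnpo3. In P635L Ctr it was at 32.7, 36.2, 59 and 47.4 CPM, and in P635L Tnpo3 at 57.9, 47.5, 58.4 and 46.8. All 4 P635L Tnpo3 libraries lay above all 8 WT libraries (such a separation held for 11.7% of all genes against WT Ctr and 11.5% against WT Tnpo3), while P635L Ctr spread over both ranges.

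Hcn2 was 1.68-fold higher in P635L Tnpo3 than in WT Ctr (52.7 ± 6.39 against 31.4 ± 5.54 CPM, SD, n = 4; log2 0.75, SE 0.18, edgeR adjusted p = 0.0282). Against WT Tnpo3 (32.6 ± 5.72 CPM) it was 1.62-fold higher (log2 0.69, SE 0.179, edgeR adjusted p = 0.0386). P635L Ctr against WT Ctr was 0.48 (95% interval 0.11 to 0.86, adjusted p = 0.0822), and the virus gave 0.26 in P635L hearts (95% interval -0.11 to 0.64, adjusted p = 0.465). The test of a difference in that effect between genotypes was not passed (interaction 0.21, adjusted p = 0.769). The higher level against WT Ctr passed in 19 of 24 alternatives (log2 0.67 to 1.02) and that against WT Tnpo3 in 15 of 24 (0.57 to 0.88). With a replicate block the adjusted p rose to 0.0515 and 0.064. Leaving out WT Ctr replicate 1 or 3, or P635L Tnpo3 replicate 1 or 3, ended the first call, with adjusted p from 0.0598 to 0.0805. The second call ended without WT Tnpo3 replicate 1, 2 or 3, without any single P635L Tnpo3 replicate, or without the 3 libraries with high Xist, with adjusted p from 0.0548 to 0.102. P635L Ctr against WT Ctr passed without P635L Ctr replicate 1 (0.62, adjusted p = 0.0344), without the 3 skewed libraries (0.75, adjusted p = 0.0346) and with no filter on low counts (0.53, adjusted p = 0.0445).

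Hcn4 (ENSMUSG00000032338), the main pacemaker channel of the sinus node, lies on the plus strand at chr9:58730695-58770458. Its counts were 11.3, 24.1, 8.66 and 13.3 CPM in WT Ctr, 8.07, 14.3, 5.9 and 8.89 in WT Tnpo3, 10.3, 13.4, 9.83 and 12.9 in P635L Ctr, and 9.69, 7.55, 7.47 and 3.62 in P635L Tnpo3. Every P635L Tnpo3 library lay below every P635L Ctr library, a separation that 20.4% of all genes tested showed in this comparison. The fitted difference was -0.72 (95% interval -1.41 to -0.02) with an edgeR adjusted p = 0.253. Against WT Ctr, P635L Tnpo3 was at -1.01 (95% interval -1.72 to -0.31, edgeR adjusted p = 0.114). DESeq2 on the same counts gave -1 with an adjusted p = 0.0338, and the authors' deposited table gave -0.99 with an adjusted p = 0.0486, so this call depends on the test. Over all alternatives the value ran from -1.2 to -0.45. Without the 3 skewed libraries, one of which holds the highest count, 24.1 CPM, Hcn4 in P635L Ctr against WT Ctr turned from -0.3 (adjusted p = 0.588) to 0.26 (adjusted p = 0.712).

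Hcn2 over Hcn4 per length was 2.97 to 5.82 in WT Ctr, 4.83 to 7.9 in WT Tnpo3, 5.16 to 11.5 in P635L Ctr and 11.5 to 24.7 in P635L Tnpo3. The P635L Tnpo3 ratios lay above those of all 8 WT libraries, as Hcn2 alone did, so this is no separate result. The highest value of the group, 24.7, came from replicate 4, the library with 3.62 CPM of Hcn4.

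**Figure D3:**
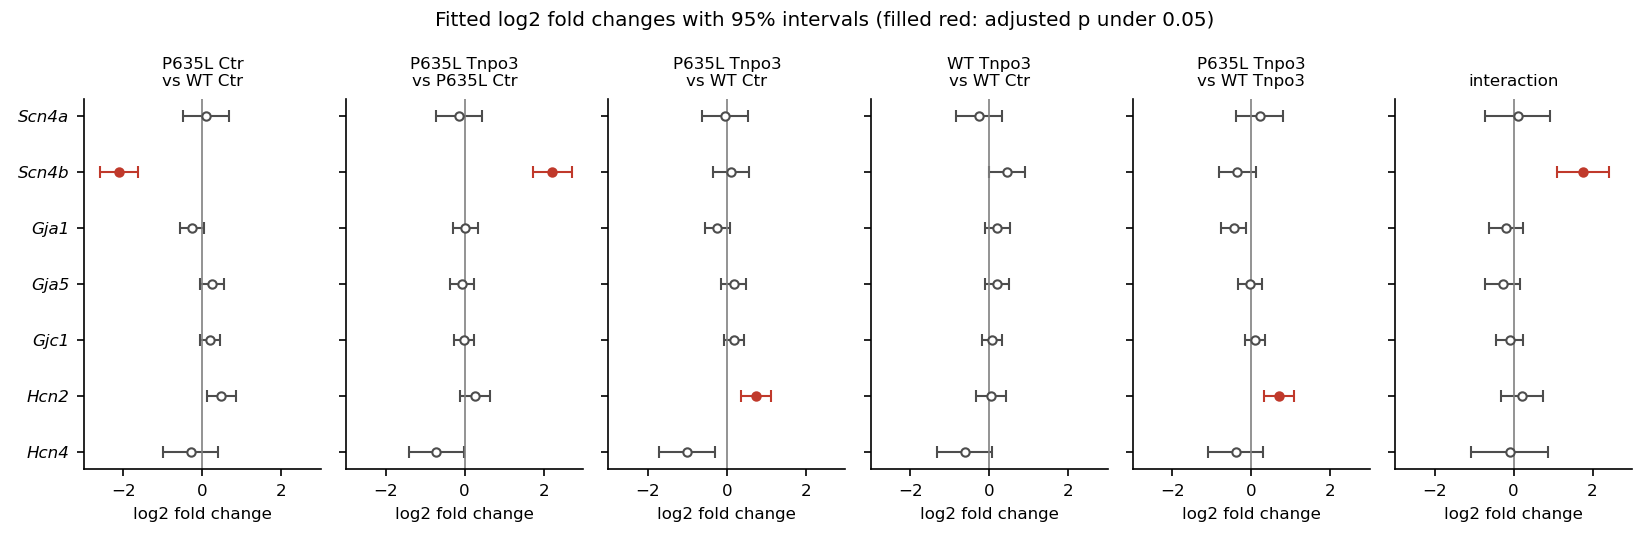
Fitted log2 fold change (horizontal axis) of each gene with its 95% interval in the 5 comparisons between groups and for the interaction of genotype and virus; filled red marks an adjusted p under 0.05. Scn4b is marked in 3 panels (-2.11, 2.22 and 1.77) and Hcn2 in 2 (0.75 and 0.69).

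The counts over the 7 genes stand beside those over all genes. In P635L Ctr against WT Ctr, 1 of 7 passed, lower, where 14.2% of all genes tested passed, 7.07% higher and 7.14% lower. In P635L Tnpo3 against P635L Ctr, 1 of 7 passed, higher, against 3.88% of all genes, 1.63% higher and 2.25% lower. Again 1 of 7 also passed, higher, in P635L Tnpo3 against WT Ctr (3.07% of all genes, 1.49% higher and 1.58% lower) and against WT Tnpo3 (3.72%, 1.72% higher). In WT Tnpo3 against WT Ctr none of the 7 passed with edgeR or with DESeq2, and 0.00536% of all genes, 1 of 18662, did with edgeR, with 597 at an unadjusted p under 0.05. None of the 7 was under 0.05 there before adjustment. The median log2 change of the 7 was 0.1, -0.02, 0.11, -0.04 and 0.08 in the same order, with -0.05, 0.01, -0.05, -0.02 and -0.02 over all genes. The libraries of WT Tnpo3 and WT Ctr overlapped for all 7 genes, and were separate for 1.09% of all genes. Comparisons that share a group share its 4 libraries.

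The authors' deposited tables cover the 3 comparisons with WT Ctr and list Scn4b at -2.1 in P635L Ctr (adjusted p = 9.25e-20), with the sign turned here so that a negative value is lower than in WT Ctr. In P635L Tnpo3 the authors' deposited table lists Hcn2 at 0.77 (adjusted p = 7.52e-05) and Hcn4 as above. No other of the 7 genes has an adjusted p under 0.05 in the authors' deposited tables.

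Other genes of conduction were taken from 6 lists of 75 genes, of which 56 were tested. In P635L Ctr against WT Ctr, 8 were higher and 7 lower, where 7.07% of all genes tested were higher and 7.14% lower; the median log2 change of the 56 was 0.03. With DESeq2 10 were higher and 10 lower. Among sodium channel subunits 2 of 9 were higher and 1 lower. Scn10a was lower (log2 -1.76, adjusted p = 0.0195) at 1.17 ± 0.457 against 3.93 ± 1.9 CPM, and Scn7a was higher (0.59, adjusted p = 0.041).

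Of the sodium channel partners 1 of 10 was higher and 1 lower in P635L Ctr. Fgf14, an intracellular factor that binds the channel's tail, was at 3.96 ± 0.723 against 1.03 ± 0.282 CPM (log2 1.93, SE 0.355, edgeR adjusted p = 0.00111), and Ank2, a membrane anchor, was lower (log2 -0.49, adjusted p = 0.0189). Of the other connexins and pannexins 1 of 8 was lower and 1 higher. Gja3 (connexin 46) fell from 17.2 ± 1.69 to 9.17 ± 1.01 CPM (log2 -0.91, SE 0.144, edgeR adjusted p = 0.000303) and was also lower in P635L Tnpo3, at 11 ± 1.23 CPM, than in WT Ctr (log2 -0.65, adjusted p = 0.0173). Panx1, a pannexin that forms membrane channels, was higher (log2 1.4, adjusted p = 0.0353). Gja4, the arterial connexin 37, was at 20.5 against 20.2 CPM (log2 0.02, adjusted p = 0.95).

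Among connexin partners in P635L Ctr, Cxadr, an adhesion receptor of the intercalated disc, was lower (log2 -0.63, adjusted p = 0.0157) and Ctnnb1 (beta-catenin) was higher (0.38, adjusted p = 0.0337). With the Tnpo3 virus Ctnnb1 fell from 280 ± 18.2 to 191 ± 11.7 CPM in P635L hearts (log2 -0.56, edgeR adjusted p = 0.0112). Of the pacemaker channels and partners, Popdc2, a cyclic-nucleotide-binding membrane protein, was lower (312 ± 51.5 against 570 ± 63.2 CPM, log2 -0.87, edgeR adjusted p = 0.00183) and its relative Popdc3 was higher (0.81, adjusted p = 0.0161). Hcn3 had group means of 0.119 to 0.267 CPM.

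Of 15 conduction transcription factors tested, Tbx5 (log2 -0.71, adjusted p = 0.00272) and Tbx3 (-0.4, adjusted p = 0.0411) were lower in P635L Ctr, and Tbx20 (0.6, adjusted p = 0.0323) and Tbx18 (0.56, adjusted p = 0.0231) higher. With the virus in P635L hearts 3 of 15 fell and none rose: Tbx20 from 59.5 ± 7.23 to 28.8 ± 2.93 CPM (log2 -1.05, SE 0.183, edgeR adjusted p = 0.00365), Gata4 (-0.63, adjusted p = 0.0368) and Gata6 (-0.55, adjusted p = 0.0434). Against WT Ctr, P635L Tnpo3 hearts were also lower in Tbx5 (-0.64, adjusted p = 0.0201) and Prox1 (-0.63, adjusted p = 0.0492), and against WT Tnpo3 in Gja3 (-0.64, adjusted p = 0.0192), Prox1 (-0.62, adjusted p = 0.0467), Tjp1, a scaffold of the junction (-0.57, adjusted p = 0.0324), and Gpd1l (-0.51, adjusted p = 0.0489). These calls did not hold in all alternatives: against WT Ctr, Tbx5 passed in 16 and Prox1 in 8 of 24 alternatives, with -0.4 (adjusted p = 0.242) and -0.39 (adjusted p = 0.381) without the 3 skewed libraries. Against WT Tnpo3, Gja3 passed in 19, Tjp1 in 14, Prox1 in 9 and Gpd1l in 7 of 24, and the replicate block ended the calls of Prox1 and Gpd1l, leaving 2 lower genes of 4. Leaving out any single P635L Tnpo3 library ended those of Tjp1, Prox1 and Gpd1l. Over all 6 lists, 4 of 56 genes fell and none rose with the virus in P635L hearts with all libraries, where 1.63% of all genes tested rose and 2.25% fell. This split depended on the fit: 9 fell and 6 rose with only the 2 groups compared in the model, and 6 fell and 1 rose without the 3 skewed libraries. Gata4 passed in 17 and Gata6 in 16 of 24 alternatives. Fgf14, Gja3 and Popdc2 in P635L Ctr, and Ctnnb1 and Tbx20 with the virus, passed in every alternative, and Tbx3 in P635L Ctr in 7 of 24. The interaction of genotype and virus passed for 1 of the 56 genes, Tbx20 (log2 -1.17), where 0.209% of all genes tested passed lower. That call held in 10 of 23 alternatives. Scn7a, Ank2, Panx1, Ctnnb1, Tbx3, Tbx5 and Tbx18 did not pass in P635L Ctr against WT Ctr without the 3 skewed libraries, where 13 of the listed genes passed in all.

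**Figure D4:**
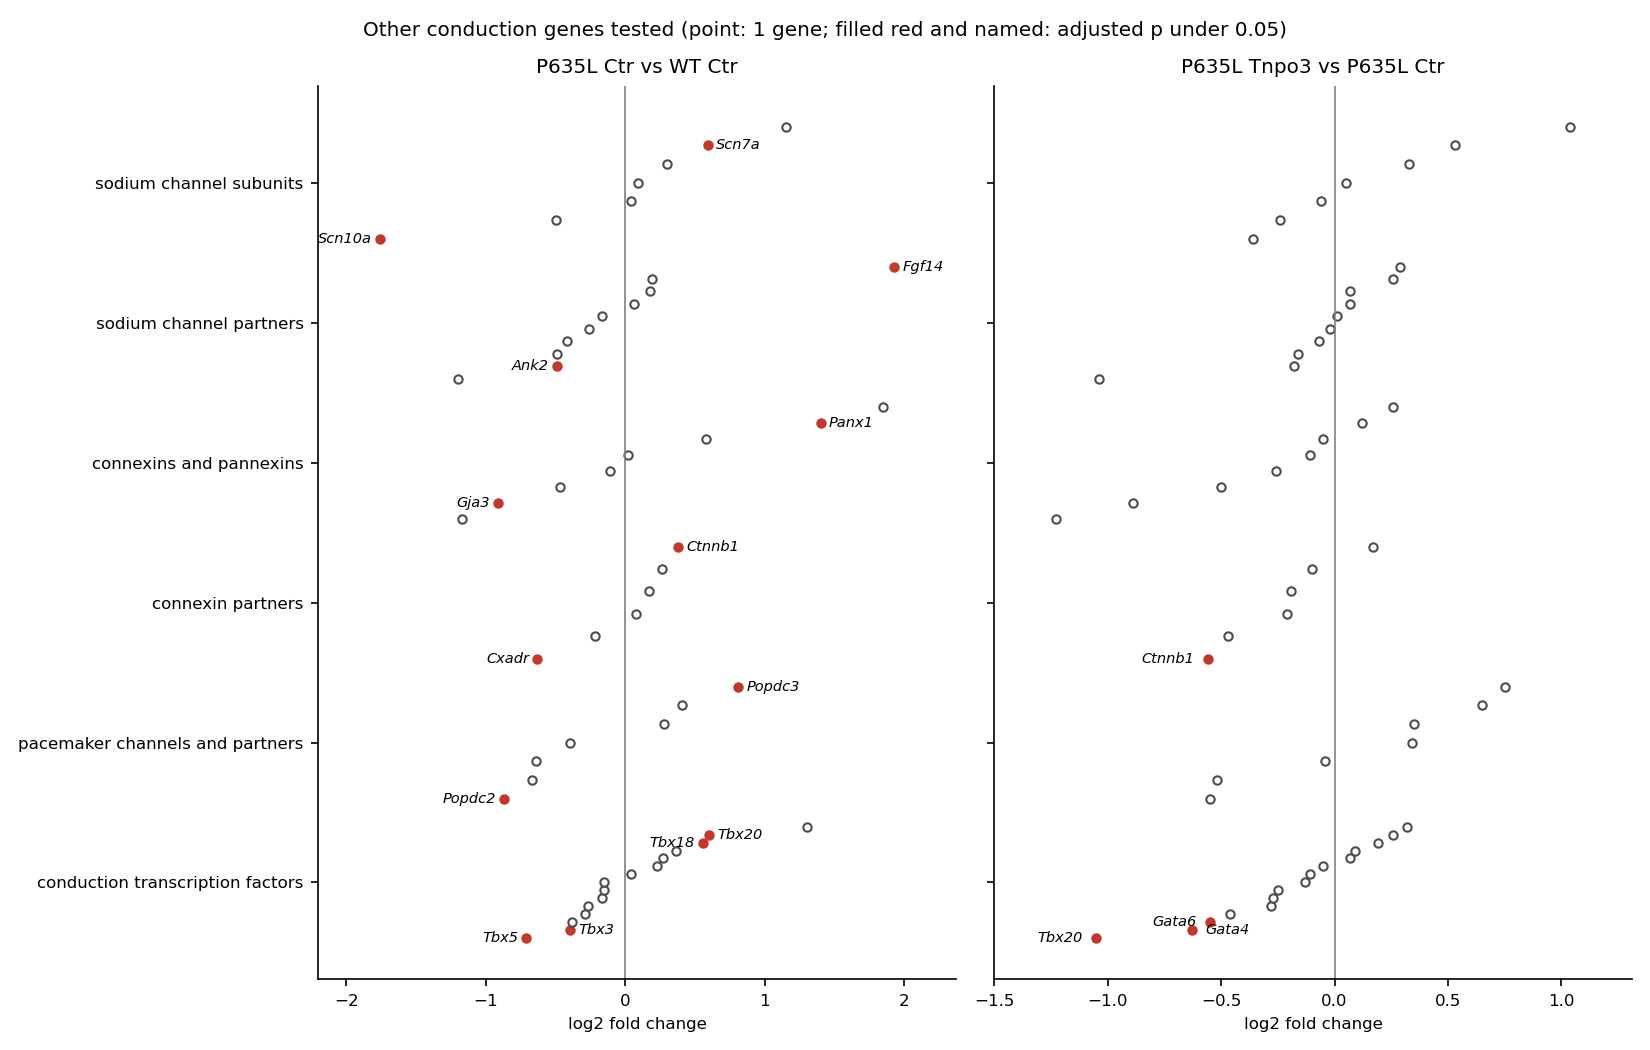
Log2 fold change (horizontal axis) of 53 of the 56 other conduction genes tested, by list, in P635L Ctr against WT Ctr (left) and P635L Tnpo3 against P635L Ctr (right); filled red and named marks an adjusted p under 0.05. On the left 7 genes are marked higher and 7 lower, and on the right 4 lower and none higher.

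The genes whose log2 counts ran most like those of a conduction gene were read off over 16 libraries and 12489 genes, as a description; all points share library, depth and group. For Scn4b these were Osbpl6 (Pearson r = 0.941), Pxmp2 (0.919) and Scgb1c1 (0.919). Their mean counts, in WT Ctr and WT Tnpo3 and then in P635L Ctr and Tnpo3, were 8.23, 9.81, 4.22 and 8.27 CPM for Osbpl6, 105, 104, 42.7 and 83.9 for Pxmp2, and 19.2, 18.7, 3.45 and 19.4 for Scgb1c1. All 3 were lowest in P635L Ctr, as Scn4b was, which follows largely from how they were picked. For Hcn2 the nearest named gene was Aasdh (r = 0.808), for Hcn4 Rnf6 (0.86), for Gja1 Rprd1a (0.958), for Gja5 Rab10os (0.836), for Gjc1 Syt15 (0.914) and for Scn4a BC034090 (0.909).

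Markers of cell types were read beside these results. The heart muscle list (Myh6, Tnnt2, Tnni3, Actn2, Ryr2, Ttn) summed to 50500 to 64400 CPM in WT Ctr, 35100 to 55800 in WT Tnpo3, 36900 to 40700 in P635L Ctr and 37200 to 47200 in P635L Tnpo3, with 2 of 6 genes lower in P635L Ctr. Of 5 fibroblast markers, 4 were higher in P635L Ctr and 3 fell with the virus; their sum was 365 to 668 CPM in WT Ctr, 431 to 483 in WT Tnpo3, 578 to 912 in P635L Ctr and 409 to 605 in P635L Tnpo3. Over all genes tested, 7.14% were lower and 7.07% higher in P635L Ctr against WT Ctr, and 2.25% fell with the virus in P635L hearts. Myh6 and Tnnt2 had the highest means in the heart muscle sum, so it says little about the rest of that list. The part of either list in the Scn4b result was not tested. The atrial list summed to 46.5 to 74.8 CPM in WT Ctr, 41.5 to 67.3 in WT Tnpo3, 403 to 424 in P635L Ctr and 84.6 to 280 in P635L Tnpo3, and Myl1 made up nearly all of the difference (24.5 to 53, 16.8 to 49.7, 380 to 401 and 62.3 to 258 CPM). The defining atrial genes Myl7 and Sln were at or under 1.43 CPM in all libraries. Myl4 (log2 0.55 in P635L Ctr against WT Ctr, edgeR adjusted p = 0.279) and Nr2f2 passed in no comparison. The atrial sum therefore follows Myl1 and not the list as a whole. The list of Purkinje and nodal genes summed to 61.1 to 73.6 CPM in WT Ctr, 52.8 to 66.5 in WT Tnpo3, 60.3 to 68.7 in P635L Ctr and 49.7 to 68.1 in P635L Tnpo3, with Isl1 at 0 in all libraries. Irx3 and Tbx3 had the highest means in this sum, so it says little about the rest. Of 6 tested, 1 was lower in P635L Ctr against WT Ctr (Tbx3, 13 against 17.2 CPM), a call that passed in 7 of 24 alternatives. None was called higher there, and the median log2 change of the 6 was 0.37, so the list as a whole did not fall. In P635L Tnpo3 against WT Tnpo3, 1 was higher (Cntn2, 9.88 against 3.54 CPM, edgeR adjusted p = 0.0197). Of all genes tested, 7.14% were lower and 1.72% higher in these 2 comparisons in turn. The 6 arterial endothelium markers summed to 117 to 176, 135 to 169, 131 to 137 and 140 to 163 CPM in the same groups, with none called. The skeletal muscle list summed to 3.26 to 4.36, 2.49 to 3.68, 12.4 to 15.6 and 6.62 to 8.57 CPM, mainly through Tnnt3, with Myog at 0 in 3 of 4 groups; its part in the Scn4a values was not tested.

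A list of 12 genes of the circadian clock, chosen after earlier results were known, had a median log2 change of -0.77 in P635L Ctr against WT Ctr and 0.8 with the virus in P635L hearts. The list did not move in 1 direction: 8 values were negative and 4 positive in the first comparison, and 4 negative and 8 positive in the second. In P635L Ctr 1 of 12 was lower, Ciart (-1.78, edgeR adjusted p = 0.0368), and 1 higher, Npas2 (1.11, edgeR adjusted p = 0.016). With the virus 1 of 12 fell, Npas2 (-1.25, edgeR adjusted p = 0.0223), and none rose. Of all genes tested, 7.14% were lower and 7.07% higher in the first comparison, and 2.25% fell in the second. At what hour hearts were taken is not stated in the labels, and the part of this list in the Scn4b result was not tested.

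Splicing of the 7 genes was nearly without events. Each of the 3 rMATS tables, which compare a group with WT Ctr, holds 3 events of the 7 genes among 41025 to 44612, all of them skipped exons, in Gja5, Hcn2 and Scn4a. Scn4b, Gja1, Gjc1 and Hcn4 have none in these tables. None of the 3 events passed in any table at an FDR (false discovery rate) under 0.05, a difference in inclusion of at least 0.1 and a mean of 10 junction reads. Of all events, 1.97%, 1.65% and 0.731% passed in P635L Ctr, P635L Tnpo3 and WT Tnpo3 against WT Ctr. In P635L Tnpo3 against WT Ctr only 2 of the 3 events had enough reads. The Gja5 event had a mean of 9 in P635L Tnpo3 and could not pass there.

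In Gja5 the 57-base exon at chr3:96945038-96945094 (GRCm39) was mostly skipped: its inclusion level, the share of transcripts that keep it, was 0, 0, 0 and 0.128 in the 4 listed WT Ctr libraries and 0, 0.217, 0.048 and 0.025 in P635L Ctr. The authors' deposited table gives a p = 0.0346 and an FDR of 0.35 for it, and inclusion reads were few, 4 in WT Ctr and 10 in P635L Ctr over all libraries. In Hcn2 the 162-base exon at chr10:79561981-79562142 was kept in nearly all reads, at 0.973 to 1 in WT Ctr, 0.986 to 1 in P635L Ctr, 1 in all P635L Tnpo3 libraries and 0.941 to 1 in WT Tnpo3. A second Hcn2 exon, of 219 bases at chr10:79564727-79564945, was at 1 in all WT Ctr libraries, 0.97 to 1 in P635L Ctr and 0.831 to 1 in WT Tnpo3. In Scn4a the 239-base exon at chr11:106229980-106230218 was at 1 in WT Ctr and 0.771 to 1 in P635L Tnpo3, from 61 inclusion reads in WT Ctr and 66 inclusion and 4 skipping reads in P635L Tnpo3. Between P635L Tnpo3 and P635L Ctr the Gja5 exon differed by -0.051 and the first Hcn2 exon by 0.004. Neither passed a two-sided exact permutation test over 4 against 4 libraries (p = 0.543 and 1, adjusted over 2 events 1 and 1, smallest possible p 0.0286). These tests could show little. The Gja5 event had 1 inclusion and 35 skipping reads over the P635L Tnpo3 libraries, and the Hcn2 exon was near full inclusion in both groups.

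**Figure D5:**
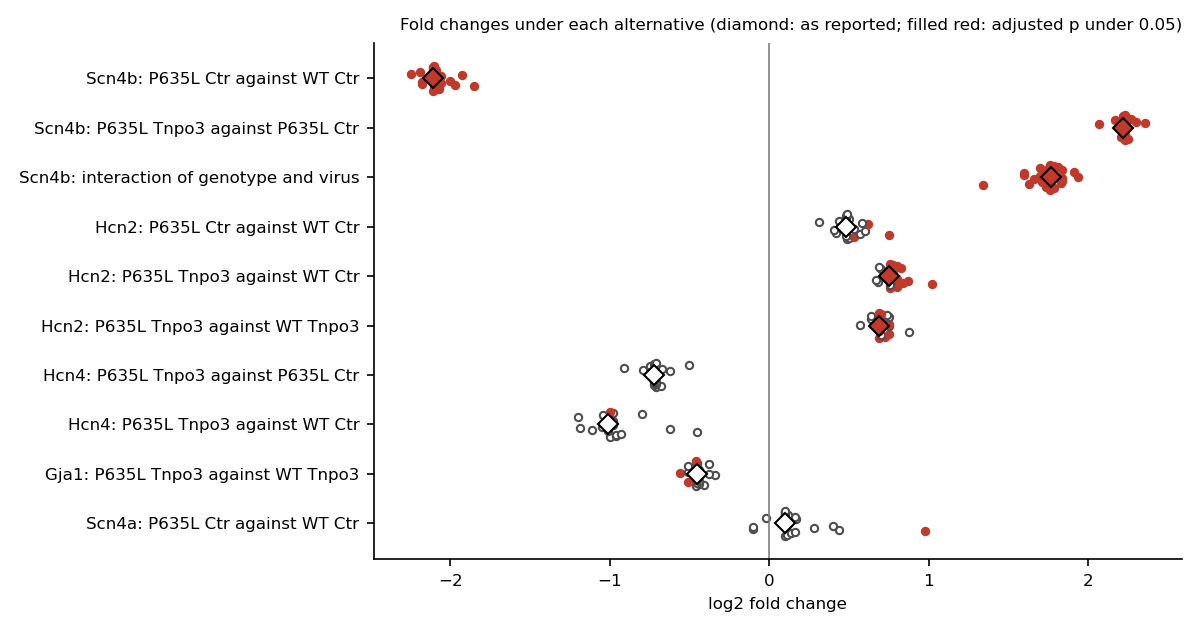
Log2 fold change (horizontal axis) of 10 combinations of gene and comparison as reported (diamond) and under each alternative (circles); filled red marks an adjusted p under 0.05. Scn4b stays marked throughout, Hcn2 in P635L Tnpo3 against WT Ctr in 19 of 24 alternatives, and Scn4a in P635L Ctr against WT Ctr moves to 0.98 under 1 of them.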

How the data were processed

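Per the submitters' processing notes, reads were aligned with STAR 2.7.9a to GRCm39 and counted with featureCounts 2.0.6, and the authors deposited raw counts per gene. The annotation, the use of strand in counting and the rMATS version are not given in the sources used here; libraries were stranded per the labels' protocols. The authors' deposited DESeq2 tables give log2 fold changes and p-values, and the deposited rMATS tables give junction reads, inclusion levels and inclusion differences (unit score here) with p-values and FDR. The tables' baseMean (a signal) was deposited by the authors and not used. The order of libraries within an rMATS table is not stated, so libraries are called by listed position. The authors' order of signs was turned.

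The fit of counts used edgeR 4.0.16 under R 4.3.3 (robust quasi-likelihood, TMM factors, filterByExpr), 1 mean per group over 16 libraries, 12 residual degrees of freedom; tests were two-sided and p-values Benjamini-Hochberg adjusted over 18662 genes, called under 0.05. The interaction is the virus effect in P635L minus that in WT. Symbols came from the rMATS tables and a supplied name table for 52062 of 56953 genes. Sequences are from RefSeq.

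Members and lists were chosen with earlier results of these data known. All members are named; listed genes are named where they passed, except that some are counted but not reported here by name. Gja4 and Hcn3 were added after their values were seen, as were the 3 motifs. Genes alike are the 3 with the highest Pearson r at a mean log2 CPM of at least 1. Alternatives were RLE and upper-quartile factors, no filter, DESeq2 1.42.0, only the groups compared, a replicate block, each library left out, and the skewed or Xist-high libraries left out.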

Additional observations from a re-analysis of the deposited data

Results flagged for a closer look

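Gja1 in WT Ctr replicate 2 stood apart from its group: it was at 326 CPM, and the other 3 libraries were at 266 to 270 CPM, a gap of 0.933 of the group's range. It is 1 of 28 combinations of gene and group examined, and chance gives about 1 in 20. This is also a library in which a single gene held 20% of the counts, and its part in the Gja1 value was not tested.

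The effect of the Tnpo3 virus on Scn4b differed between genotypes, by 1.77 on the log2 scale (P635L minus WT, edgeR adjusted p = 0.0127, n = 4 per group). All 4 P635L Tnpo3 libraries were above all 4 P635L Ctr libraries, whereas the WT groups overlapped. The libraries were separate for 20.4% of all genes tested in the P635L comparison and for 1.09% in the WT comparison.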

How the results depend on the processing

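Over 1001 recomputed fold changes of the 7 genes in 6 contrasts, 945 kept direction and call and 34 changed sign. With the sign kept, 14 lost a call and 8 gained one. Scn4a in P635L Tnpo3 against WT Ctr both changed sign and gained a call without the skewed libraries (0.83, edgeR adjusted p = 0.0234). Of 42 combinations of gene and contrast, 30 kept their sign throughout. The count of called genes, 1 of 7, moved as follows. In P635L Ctr against WT Ctr it was 2 with no filter, 3 without the skewed libraries and 1 to 2 with single libraries left out. In P635L Tnpo3 against WT Ctr it was 0 with the replicate block, 2 without the skewed libraries, 2 with DESeq2 and 0 to 1 with single libraries left out. In P635L Tnpo3 against WT Tnpo3 it was 0 with the block, 2 without the skewed libraries, 0 without the Xist-high ones, 2 with DESeq2 and 0 to 1 with single libraries left out. The replicate block changed no other call of the 7 genes. By the rule that every pair must exceed 0.1, same-numbered libraries did not pair: 6 of 24 correlations of their deviations did (-0.257 to 0.552). WT Ctr and WT Tnpo3 came closest, with 0.096, 0.108, 0.276 and 0.552 for replicates 1 to 4. The cause of these moves was not tested.

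The sign changed in these cases. Without the skewed libraries Scn4a was 0.83 in P635L Tnpo3 against WT Ctr, 0.55 in WT Tnpo3 against WT Ctr and -0.7 in the interaction, Hcn4 was 0.26 in P635L Ctr against WT Ctr, and Gja5 was 0.03 in P635L Tnpo3 against WT Tnpo3. Without the Xist-high libraries Scn4a was 0.29 in P635L Tnpo3 against WT Ctr and -0.08 in the interaction, Hcn2 was -0.04 in WT Tnpo3 against WT Ctr, and in P635L Tnpo3 against WT Tnpo3 Gja5 was 0.02 and Hcn4 0.03, with Hcn4 at 0.32 in the interaction. Scn4a was 0.01 in P635L Tnpo3 against WT Ctr with the block, and Gjc1 0.02 in P635L Tnpo3 against P635L Ctr with upper-quartile factors. With single libraries left out, Scn4a ran from -0.1 to 0.4 in P635L Ctr against WT Ctr, -0.25 to 0.25 in P635L Tnpo3 against WT Ctr, -0.46 to 0.04 in WT Tnpo3 against WT Ctr and -0.19 to 0.31 in the interaction. Hcn4 ran from -0.48 to 0.1 in P635L Ctr against WT Ctr and -0.49 to 0.17 in the interaction, and Hcn2 from -0.02 to 0.18 in WT Tnpo3 against WT Ctr. In P635L Tnpo3 against P635L Ctr, Gja1 ran from -0.03 to 0.11, Gja5 from -0.17 to 0.04 and Gjc1 from -0.04 to 0.03, and Gja5 from -0.09 to 0.02 in P635L Tnpo3 against WT Tnpo3. For the other conduction genes the alternatives were chosen after seeing the data. The counts that passed were 15 in P635L Ctr against WT Ctr, 13 without the skewed libraries and 20 with DESeq2, and in P635L Tnpo3 against WT Tnpo3 they were 5, 13 and 11. In P635L Tnpo3 against P635L Ctr they were 4, 7 and 5, with 15 when only the 2 groups compared were fitted, and against WT Ctr 4, 1 and 6. The block gave 15, 3, 3 and 3 in P635L Ctr against WT Ctr and in P635L Tnpo3 against P635L Ctr, WT Ctr and WT Tnpo3. No splicing event was called under any read minimum, difference or listed library left out.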
